A study of Mus musculus with 21 samples.

Results

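Glandular stomach RNA of 5 K19-Wnt1/C2mE mice was compared with that of 3 wild-type C57BL/6 mice, with 1 array per mouse (below, the transgenic and the wild-type arrays). The members were taken by the genotype label and make up 8 of the 21 arrays of the series, which also holds K19-Wnt1, K19-C2mE, K19-Nog and K19-Nog/C2mE mice. In K19-Wnt1/C2mE mice the keratin 19 (K19) promoter drives Wnt1, a ligand of the canonical Wnt pathway, together with C2mE, that is COX-2 (Ptgs2) and mPGES-1 (Ptges), the enzymes that make prostaglandin E2. Wild-type mice carry none of these transgenes, all mice are labelled as C57BL/6 females of 18 to 65 weeks with no age given per mouse, and none of the labels names a treatment. The promoter acts in epithelium, the tissue cut out holds every cell type of the stomach wall, and the comparison asks what both pathways switched on together change in the stomach.

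Wnt ligands bind Frizzled receptors with LRP coreceptors and stabilise beta-catenin, which enters the nucleus and turns on target genes with TCF factors. In gut crypts and gastric glands this pathway keeps progenitor cells dividing. Prostaglandin E2 acts through the receptors EP1 to EP4 on epithelium, stroma and immune cells, and it is known for mucosal protection, inflammation and tumour promotion. The normal glandular stomach is built of surface (foveolar) mucous cells, mucous neck cells, acid-secreting parietal cells, pepsinogen-secreting chief cells and endocrine cells. When parietal and chief cells are lost, glands often turn to spasmolytic polypeptide-expressing metaplasia (SPEM), a mucous cell state that carries Tff2.

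Values are log2 of the RMA intensity of 1 probe set, the brightest, for each of 18193 genes, and a difference is K19-Wnt1/C2mE minus wild-type on this log2 scale. A change is an adjusted p under 0.05 in a limma model of all 21 arrays. Arrays of K19-Wnt1/C2mE correlated with each other at 0.985 to 0.993 over all probe sets, wild-type arrays at 0.994 to 0.996, and arrays of different groups at 0.951 to 0.968. The median SD of a gene was 0.163 among the K19-Wnt1/C2mE arrays and 0.0958 among the wild-type arrays. Although all mice are labelled female, Y-linked genes stood high, with a low Xist, in wild-type arrays 1 and 3 and in K19-Wnt1/C2mE array 5. Thus 2 of 3 and 1 of 5 arrays go against the label (below, the 3 arrays of high Y-linked level). Among the other genotypes the same held for K19-C2mE arrays 2 and 3 and K19-Wnt1 arrays 1, 2, 4 and 5. It held for no K19-Nog or K19-Nog/C2mE array, so the comparisons with K19-C2mE and K19-Nog/C2mE are not balanced for it. The median log2 level of forestomach squamous genes, which normally mark the squamous part of the mouse stomach, was 6.32, 9.92, 7.93, 7.38 and 7.56 in K19-Wnt1/C2mE arrays 1 to 5 and 5.68, 7.84 and 5.87 in wild-type arrays 1 to 3. Array 2 was the highest of each group. With the level of Y-linked genes as a covariate 6921 genes passed the test, with the squamous level as a covariate 7279, and without the 3 arrays of high Y-linked level, which leaves 1 wild-type array, 3849. Their part in the results was not tested beyond these fits, and counts of a gene list that move by over 1.5 times in the last fit are given beside the list.

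Of the 18193 genes, 7930 (43.6%) differed between K19-Wnt1/C2mE and wild-type, 3843 of them higher (21.1%) and 4087 lower (22.5%). The count of every gene list below is to be read beside these shares. The share past the test was near that of all genes for secreted Wnt antagonists (45.5%), adipocyte genes (44.4%) and cell cycle genes (42.1%). In 826 genes the rise and in 668 the fall was at least 2-fold, and in 37 and 45 genes it was at least 16-fold. The arrays of the groups did not overlap in 7667 genes (42.1%), and in these K19-Wnt1/C2mE was higher for 20.3% and lower for 21.8% of all genes. Of the 45037 probe sets 36.5% differed. The median difference of all genes was -0.04. Averaged over the genes called higher, each K19-Wnt1/C2mE array lay 0.75 to 0.85 above the wild-type mean, and over the genes called lower 0.62 to 0.78 below it. Since these genes were called on the same arrays, this describes their spread only, with array 3 the nearest to wild-type among the falls. Of 4383 called genes that have several probe sets, 2578 had another probe set called in the same direction and 200 had one called in the opposite direction. With the mean of all probe sets in place of the brightest, the difference of 38 of the called genes named here shrank by over 1.5 times, and for most of them this value follows the adjusted p.

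**Figure D1:**
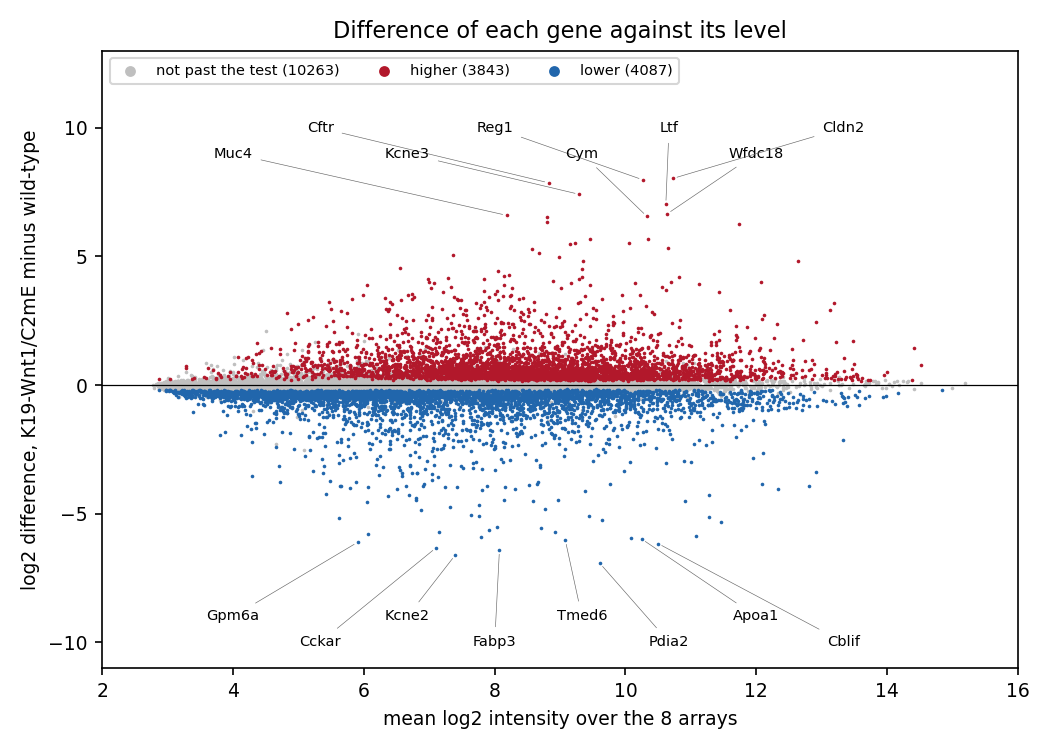
Each point is 1 of 18193 genes, with its mean log2 level over the 8 arrays on the x axis and the log2 difference of K19-Wnt1/C2mE from wild-type on the y axis. Coloured points passed the limma test at an adjusted p under 0.05, and named points are the 8 largest rises and 8 largest falls, led by Cldn2 and Pdia2.

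Of all genes, the largest rises were those of Cldn2, Reg1 and Cftr. Cldn2, a claudin that forms a cation pore between epithelial cells, lay at 13.70, 13.85, 13.77, 13.67 and 13.71 in the K19-Wnt1/C2mE arrays and 4.50, 5.72 and 6.90 in wild-type. Reg1, a secreted protein of the regenerating family, lay at 13.53, 13.50, 13.02, 13.44 and 12.80 in the K19-Wnt1/C2mE arrays and 4.89, 4.72 and 6.23 in wild-type. Cftr, the cyclic AMP-gated chloride channel, lay at 11.83, 11.81, 12.03, 11.51 and 11.69 in the K19-Wnt1/C2mE arrays and 3.47, 3.91 and 4.35 in wild-type. In these 3 genes the transgenic arrays were nearly level with each other. Cldn2 rose by 8.04 (SE 0.78, adjusted p = 1.14e-07), a difference that ranged over 7.43 (without wild-type array 1) to 8.63 (without wild-type array 3) when 1 array was left out. Reg1 rose by 7.98 (SE 0.91, adjusted p = 8.82e-07) and Cftr rose by 7.86 (SE 0.46, adjusted p = 2.7e-10). Kcne3, a potassium channel subunit that works with chloride secretion in the intestine, ranged over 4.39 to 5.10 in wild-type and 11.53 to 12.49 in the transgenic arrays, a difference of 7.42 (SE 0.70, adjusted p = 7.36e-08). The proton channel gene Otop3 ranged over 4.38 to 5.21 in wild-type and 10.81 to 11.40 in the transgenic arrays, a difference of 6.35 (SE 0.36, adjusted p = 1.67e-10). The others among the 15 largest rises were Ltf (7.02), Wfdc18 (6.66), Muc4 (6.60), Cym (6.56), Reg3b (6.54), Pigr (6.26), Lrg1 (5.70), Dmkn (5.68), Cldn7 (5.52) and Reg3g (5.50). Dmkn, a gene of keratinised epithelium, lay at 4.01, 8.98 and 4.71 in wild-type and was high in array 2, which is also the wild-type array with the highest squamous level.

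Of all genes, the largest falls were those of Pdia2, Kcne2 and Fabp3. Pdia2, a protein disulfide isomerase of secretory cells, lay at 6.77, 6.26, 10.85, 6.04 and 5.12 in the K19-Wnt1/C2mE arrays and 13.96, 13.86 and 14.003 in wild-type. Kcne2, the channel subunit that returns potassium to the acid pump, lay at 4.91, 4.41, 7.27, 4.03 and 3.95 in the K19-Wnt1/C2mE arrays and 11.61, 11.40 and 11.59 in wild-type. Fabp3, a fatty acid carrier of oxidative cells, lay at 5.45, 5.22, 8.20, 4.90 and 4.55 in the K19-Wnt1/C2mE arrays and 12.12, 12.04 and 12.09 in wild-type. K19-Wnt1/C2mE array 3 kept by far the highest level of the transgenic arrays in each. Pdia2 fell by 6.93 (SE 1.003, adjusted p = 1.61e-05), Kcne2 fell by 6.62 (SE 0.74, adjusted p = 7.26e-07) and Fabp3 fell by 6.42 (SE 0.71, adjusted p = 5.88e-07, mean of probe sets -3.55). Cckar, a receptor of cholecystokinin, differed by -6.33, and Cblif, which encodes intrinsic factor, by -6.17. Then followed Gpm6a (-6.11), Tmed6 (-6.04), Apoa1 (-5.99), Smim38 (-5.94), Esrrg (-5.92), Atp4b (-5.87), Slc26a7 (-5.78), Cox7a1 (-5.71), Pnliprp2 (-5.70) and Kcnj16 (-5.62), all past the test. In tissue arrays such as these, fewer cells of a type and less RNA per cell cannot be told apart.

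**Figure D2:**
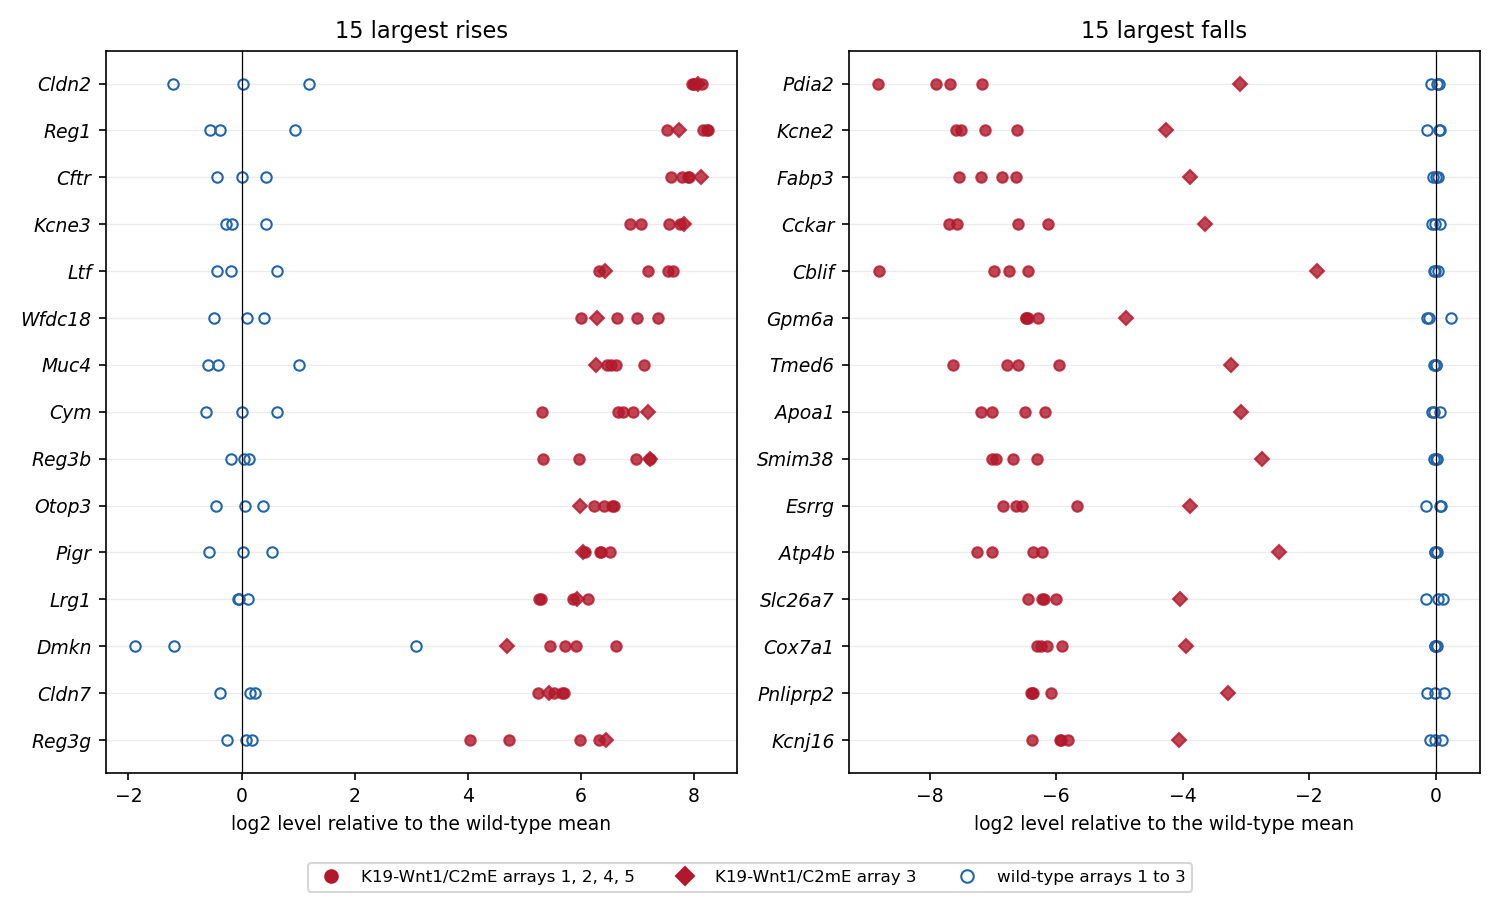
Log2 level of each array relative to the wild-type mean of the gene (x axis) for the 15 largest rises and 15 largest falls (rows), with 5 K19-Wnt1/C2mE arrays as filled symbols and 3 wild-type arrays as open circles. K19-Wnt1/C2mE array 3, drawn as a diamond, is the nearest to wild-type in each of the 15 falls.

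Parietal cell genes fell almost throughout. Of 19 measured genes 17 fell and 0 rose, with a median of -2.09 against -0.04 for all genes, of which 22.5% fell and 21.1% rose. Atp4a, the catalytic subunit of the gastric proton pump, lay at 8.68, 8.93, 12.48, 8.61 and 8.07 in the K19-Wnt1/C2mE arrays and 14.52, 14.40 and 14.52 in wild-type. Its partner Atp4b lay at 8.38, 8.52, 12.27, 7.49 and 7.73 in the K19-Wnt1/C2mE arrays and 14.77, 14.73 and 14.73 in wild-type. Arrays 1, 2, 4 and 5 were below 9 in both genes and array 3 was above 12, yet no array reached the wild-type range of Atp4a. Atp4a fell by 5.13 (SE 0.98, adjusted p = 0.000333) and Atp4b fell by 5.87 (SE 0.97, adjusted p = 6.88e-05). Without array 3 the Atp4a difference was -5.91. Esrrg, a nuclear receptor that drives oxidative genes in parietal cells, fell by 5.92 (SE 0.70, adjusted p = 1.4e-06, mean of probe sets -3.52). Slc26a7, an anion exchanger, fell by 5.78 (SE 0.53, adjusted p = 5.34e-08) and the potassium channel Kcnj16 fell by 5.62 (SE 0.47, adjusted p = 1.63e-08). Aqp4, the water channel of the parietal basolateral membrane, ranged over 4.40 to 6.51 in K19-Wnt1/C2mE and 9.36 to 9.62 in wild-type and fell by 4.38 (SE 0.34, adjusted p = 5.54e-09). The median of the list, taken per array relative to the wild-type mean, was -2.48, -2.32, -1.97, -2.07 and -2.08 in K19-Wnt1/C2mE arrays 1 to 5, with array 3 near the others.

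Among 9 chief cell genes 5 fell and 1 rose, with a median of -2.67. Pgc, the gene of pepsinogen C, lay at 10.16, 10.03, 13.66, 10.14 and 10.08 in the K19-Wnt1/C2mE arrays and 14.92, 14.85 and 14.85 in wild-type. Chia1, an acidic chitinase of mouse chief cells, lay at 8.72, 8.55, 14.01, 9.73 and 6.31 in the K19-Wnt1/C2mE arrays and 14.78, 14.78 and 14.81 in wild-type. For Cblif the levels were 7.61, 7.91, 12.48, 7.38 and 5.55 in the K19-Wnt1/C2mE arrays and 14.34, 14.33 and 14.39 in wild-type. Array 3 stood far above the next transgenic array in each of these 3 genes. Pgc fell by 4.06 (SE 0.77, adjusted p = 0.000288), Chia1 fell by 5.32 (SE 1.11, adjusted p = 0.000717) and Cblif fell by 6.17 (SE 1.09, adjusted p = 0.00015). Per array the median of the list relative to the wild-type mean was -2.56, -2.57, -0.77, -3.45 and -3.02 in K19-Wnt1/C2mE arrays 1 to 5, with array 3 apart from the others. The secreted ribonuclease Rnase1 fell by 5.06 (SE 0.44, adjusted p = 2.48e-08). Against this fall stood Cym, the milk-clotting protease chymosin, which lay at 13.14, 12.88, 13.41, 11.53 and 12.97 in the K19-Wnt1/C2mE arrays and 5.60, 6.85 and 6.24 in wild-type and rose by 6.56 (SE 0.86, adjusted p = 4.77e-06).

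All endocrine cell genes that passed the test fell, 16 of 19, with a median of -1.67. Sst, the inhibitory hormone somatostatin of D cells, lay at 7.56, 6.95, 9.99, 6.28 and 6.87 in the K19-Wnt1/C2mE arrays and 12.51, 12.64 and 12.69 in wild-type. Ghrl, the appetite hormone ghrelin, lay at 10.27, 9.63, 12.34, 7.43 and 8.68 in the K19-Wnt1/C2mE arrays and 13.94, 13.99 and 13.90 in wild-type. Chga, the granule protein chromogranin A, lay at 7.62, 7.36, 8.88, 4.70 and 6.27 in the K19-Wnt1/C2mE arrays and 11.99, 11.68 and 11.70 in wild-type. Again array 3 held the highest transgenic level of each, below the lowest wild-type level. Sst fell by 5.09 (SE 0.59, adjusted p = 1.16e-06), Ghrl fell by 4.27 (SE 0.91, adjusted p = 0.000879) and Chga fell by 4.82 (SE 0.66, adjusted p = 7.63e-06). Scg5, a granule chaperone, differed by -4.24 and Slc18a2, the vesicular transporter of histamine and serotonin, by -3.41, with adjusted p = 7.05e-09 and 6.85e-09. Gast, the antral hormone gastrin, lay at 5.13, 5.20, 4.95, 4.92 and 4.97 in the K19-Wnt1/C2mE arrays and 5.33, 7.41 and 5.79 in wild-type. The K19-Wnt1/C2mE arrays were level and the wild-type arrays scattered, and the difference of -1.14 did not pass (adjusted p = 0.499).

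Surface mucous genes moved in both directions, with 7 of 12 falling, 2 rising and a median of -0.33 (1 rose and 4 fell without the 3 arrays of high Y-linked level). Muc5ac, the gel-forming mucin of surface cells, lay at 7.98, 10.38, 12.34, 7.40 and 8.02 in the K19-Wnt1/C2mE arrays and 13.56, 13.86 and 13.76 in wild-type. Capn9, a calpain of surface cells, lay at 6.19, 7.23, 8.09, 5.77 and 8.04 in the K19-Wnt1/C2mE arrays and 10.86, 11.19 and 10.81 in wild-type. In both genes the K19-Wnt1/C2mE arrays were spread over more than 2 log2 units and lay below wild-type throughout. Muc5ac fell by 4.50 (SE 0.87, adjusted p = 0.000336) and Capn9 fell by 3.89 (SE 0.73, adjusted p = 0.000268). Psca, a surface antigen of the pit, fell by 2.14 (SE 0.37, adjusted p = 0.000126), Capn8 fell by 1.28 (SE 0.23, adjusted p = 0.000203) and Vsig1, a junction protein of the stomach, fell by 0.69 (SE 0.15, adjusted p = 0.00116). The 2 that rose were Muc1, a membrane mucin, by 0.61 and Fut2, the enzyme of the H antigen on mucins, by 0.49 (adjusted p = 5.65e-05 and 0.000762).

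Every one of the 14 mucous neck and SPEM genes passed the test, 13 of them higher and 1 lower, with a median of 3.21. Muc4, a membrane mucin of metaplastic glands, lay at 10.53, 10.58, 10.32, 11.17 and 10.68 in the K19-Wnt1/C2mE arrays and 3.64, 5.08 and 3.46 in wild-type. Cd44, a hyaluronan receptor that is also a Wnt target, lay at 12.53, 12.81, 12.54, 12.77 and 12.55 in the K19-Wnt1/C2mE arrays and 6.99, 7.60 and 7.40 in wild-type. Dmbt1, a scavenger protein of the mucus layer, lay at 14.49, 14.69, 14.35, 14.52 and 14.19 in the K19-Wnt1/C2mE arrays and 8.99, 9.88 and 10.04 in wild-type. In all 3 the K19-Wnt1/C2mE arrays lay within 1 log2 unit of each other, and the groups did not overlap. Muc4 was named as one of the largest rises, which were taken without overlap of the groups. Muc4 rose by 6.60 (SE 0.50, adjusted p = 4.95e-09, mean of probe sets 3.43), Cd44 rose by 5.31 (SE 0.29, adjusted p = 1.22e-10) and Dmbt1 rose by 4.81 (SE 0.44, adjusted p = 4.55e-08). Cldn7, a claudin, rose by 5.52 (SE 0.41, adjusted p = 3.94e-09). Tff2, the spasmolytic polypeptide that gives SPEM its name, lay at 14.70, 14.86, 14.87, 14.80 and 14.83 in the K19-Wnt1/C2mE arrays and 14.05, 14.06 and 14.02 in wild-type. The groups did not overlap in this gene of high signal either, and Tff2 rose by 0.77 (SE 0.09, adjusted p = 6.43e-07). Olfm4, a secreted protein of intestinal stem cells, was the only member that fell, by 1.52 (SE 0.53, adjusted p = 0.0271), and the call was lost without K19-Wnt1/C2mE array 3 or 5 or wild-type array 1 or 3 (adjusted p up to 0.095).

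Among 24 intestinal genes 7 rose and 7 fell, with a median of -0.03. Cdx1 and Cdx2, the homeobox factors that define intestinal fate, differed by 0.11 (adjusted p = 0.55) and 0.18 (adjusted p = 0.134) and did not pass. Muc2, the goblet cell mucin, fell by 0.43 (SE 0.10, adjusted p = 0.00135). Vil1, a brush border actin bundler, lay at 10.48, 10.20, 10.10, 10.89 and 10.61 in the K19-Wnt1/C2mE arrays and 7.29, 7.59 and 6.97 in wild-type. Gpa33, a surface glycoprotein of intestinal epithelium, lay at 9.38, 9.33, 9.04, 9.54 and 9.72 in the K19-Wnt1/C2mE arrays and 5.63, 6.02 and 5.56 in wild-type. Groups were clearly apart in both, and Vil1 rose by 3.17 (SE 0.21, adjusted p = 1.16e-09) and Gpa33 rose by 3.67 (SE 0.19, adjusted p = 4.55e-11). By contrast the apolipoprotein genes Apoa1 and Apoa4, which serve lipid export, differed by -5.99 (SE 0.86, adjusted p = 1.37e-05) and -4.10 (SE 0.27, adjusted p = 1.01e-09). Anpep, a brush border peptidase, fell by 3.21 (SE 0.44, adjusted p = 8.29e-06).

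Among 29 transcription factors of stomach and gut 15 rose and 5 fell (median 0.54), and 12 rose and 2 fell without the 3 arrays of high Y-linked level. Onecut2, a liver and gut factor, lay at 10.63, 10.71, 9.44, 11.41 and 10.62 in the K19-Wnt1/C2mE arrays and 5.54, 4.94 and 5.30 in wild-type. Klf5, a factor of proliferating crypt cells, lay at 12.60, 12.51, 12.36, 13.002 and 13.05 in the K19-Wnt1/C2mE arrays and 10.52, 10.47 and 10.39 in wild-type. Sox2, a factor of foregut and stomach identity, lay at 9.28, 9.62, 9.58, 9.82 and 9.67 in the K19-Wnt1/C2mE arrays and 7.70, 7.79 and 7.38 in wild-type. No transgenic array of these 3 genes fell within the wild-type range. Onecut2 rose by 5.30 (SE 0.39, adjusted p = 2.95e-09), Klf5 rose by 2.25 (SE 0.18, adjusted p = 9.5e-09, mean of probe sets 1.50) and Sox2 rose by 1.97 (SE 0.15, adjusted p = 3.43e-09). Pdx1, the antral and pancreatic homeobox factor, lay at 8.06, 7.60, 6.55, 8.69 and 7.80 in the K19-Wnt1/C2mE arrays and 5.72, 5.87 and 5.66 in wild-type. Array 3 was the lowest and array 4 the highest of the transgenic arrays, all above wild-type, and Pdx1 rose by 1.99 (SE 0.39, adjusted p = 0.000369). Ehf, an epithelial ETS factor, rose by 2.27 (SE 0.15, adjusted p = 1e-09, mean of probe sets 1.49), although another of its probe sets was called lower. The factors that fell were Foxa2 by 1.01, Gata4 by 0.98, Klf4 by 0.78, Runx3 by 0.34 and Xbp1, a regulator of secretory cells, by 0.27, with adjusted p between 7.83e-05 and 0.0237. The call of Foxa2 was lost without K19-Wnt1/C2mE array 4 or wild-type array 1, 2 or 3 (adjusted p up to 0.0697).

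Tight junction and transport genes held several of the largest rises, while the medians of their lists were near that of all genes. Of 19 claudin and junction genes 7 rose and 3 fell (median -0.02), and of 27 ion and water transport genes 10 rose and 7 fell (median 0.09, 6 rose and 3 fell without the 3 arrays of high Y-linked level). Beside Cldn2 and Cldn7, the claudins Cldn23 and Cldn4 rose by 3.13 (SE 0.36, adjusted p = 9.52e-07) and 1.08 (SE 0.31, adjusted p = 0.00765). Cldn8, a claudin that seals the junction to cations, lay at 3.87, 4.52, 4.40, 4.21 and 3.85 in the K19-Wnt1/C2mE arrays and 8.16, 8.08 and 8.08 in wild-type. It fell in all 5 mice, by 3.93 (SE 0.27, adjusted p = 1.59e-09). The endothelial claudin Cldn5 fell by 0.65 and Ocln, encoding occludin, by 0.35, and these calls were lost without wild-type array 3 (adjusted p = 0.0777) and without wild-type array 2 (adjusted p = 0.0821). Car12, a membrane carbonic anhydrase, lay at 8.54, 9.29, 8.76, 8.66 and 8.96 in the K19-Wnt1/C2mE arrays and 4.48, 5.17 and 4.45 in wild-type. Aqp1, a water channel, lay at 10.02, 11.55, 9.99, 11.09 and 11.49 in the K19-Wnt1/C2mE arrays and 6.37, 6.59 and 7.15 in wild-type. Both were higher in every transgenic array, with differences of 4.14 (SE 0.37, adjusted p = 3.41e-08, mean of probe sets 1.70) and 4.13 (SE 0.42, adjusted p = 1.85e-07). Aqp5, a water channel of secretory glands, rose by 4.06 (SE 0.44, adjusted p = 4.68e-07). Water channels thus moved in opposite directions, as Aqp4 fell.

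Simple epithelial keratin and adhesion genes rose in 10 of 15 cases (median 0.81). Krt7, a keratin of ductal epithelium, lay at 12.22, 12.10, 12.31, 11.64 and 11.66 in the K19-Wnt1/C2mE arrays and 7.86, 8.90 and 7.73 in wild-type. Epcam, an epithelial adhesion molecule, lay at 13.25, 13.29, 13.09, 13.23 and 13.19 in the K19-Wnt1/C2mE arrays and 10.78, 10.90 and 10.80 in wild-type. Ceacam1, another adhesion molecule, lay at 12.25, 12.30, 11.87, 11.72 and 11.88 in the K19-Wnt1/C2mE arrays and 8.37, 8.19 and 8.37 in wild-type. The transgenic arrays lay within 1 log2 unit of each other and above wild-type in all 3 genes. Krt7 rose by 3.82 (SE 0.33, adjusted p = 2.89e-08), Epcam rose by 2.39 (SE 0.11, adjusted p = 1.74e-11, mean of probe sets 1.46) and Ceacam1 rose by 3.69 (SE 0.30, adjusted p = 9.79e-09). Krt20 rose by 2.31 (SE 0.32, adjusted p = 9.04e-06) and the laminin receptor subunit Itgb4 rose by 1.47 (SE 0.14, adjusted p = 1.16e-07). Cdhr5, a protocadherin of the brush border, was the member that fell, by 0.53 (adjusted p = 0.00345). Krt19, whose promoter drives the transgenes, differed by 0.20 (adjusted p = 0.0799). Cdh1, encoding E-cadherin, differed by 0.01 (adjusted p = 0.944), and Dcc, a netrin receptor often lost in human gut tumours, by -0.26 (adjusted p = 0.0361, mean of probe sets -0.069, call lost), a call lost without K19-Wnt1/C2mE array 3 or 4 or wild-type array 1, 2 or 3 (adjusted p up to 0.121).

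Among 15 prostaglandin genes 4 rose and 9 fell (median -0.47). Ptgs2, one of the transgenes and an enzyme that makes prostaglandin H2, lay at 9.62, 9.58, 9.54, 9.89 and 10.49 in the K19-Wnt1/C2mE arrays and 7.24, 7.25 and 6.69 in wild-type. Every transgenic array was above every wild-type array, array 5 the highest, and Ptgs2 rose by 2.76 (SE 0.22, adjusted p = 1.04e-08). Ptges, the other enzyme of the transgene, lay at 6.49, 6.53, 6.43, 7.10 and 7.24 in the K19-Wnt1/C2mE arrays and 6.39, 6.43 and 6.43 in wild-type and did not pass (0.34, adjusted p = 0.118). Arrays 4 and 5 were above the others in Ptges. Wnt1 lay at 6.08, 6.01, 5.93, 5.65 and 6.12 in the K19-Wnt1/C2mE arrays and 6.15, 6.33 and 6.04 in wild-type, with overlapping groups and a difference of -0.21 (adjusted p = 0.159). Whether these probe sets lie within the transgene constructs is not known, so they need not measure transgene RNA. The receptor genes moved apart. Ptger4, the EP4 receptor, lay at 10.81, 10.75, 10.56, 11.16 and 10.36 in the K19-Wnt1/C2mE arrays and 8.23, 8.61 and 8.002 in wild-type. Ptger3, the EP3 receptor, lay at 3.92, 3.79, 4.93, 3.47 and 3.74 in the K19-Wnt1/C2mE arrays and 7.13, 7.69 and 7.16 in wild-type. The groups did not overlap in either gene, with Ptger4 higher and Ptger3 lower in all 5 mice. The differences were 2.45 (SE 0.20, adjusted p = 1.4e-08) and -3.36 (SE 0.32, adjusted p = 7.41e-08, mean of probe sets -1.96). The uptake transporter Slco2a1 fell by 1.84 (SE 0.30, adjusted p = 5.99e-05), the breakdown enzyme Hpgd fell by 1.20 (SE 0.22, adjusted p = 0.000214) and the prostacyclin synthase Ptgis fell by 1.55 (SE 0.19, adjusted p = 2.92e-06). Abcc4, an export pump of prostaglandins, rose by 1.14 (SE 0.20, adjusted p = 0.00011), and Pla2g4a, a phospholipase that releases arachidonic acid, rose by 0.38 (SE 0.12, adjusted p = 0.018), a call lost without wild-type array 1 or 3 (adjusted p up to 0.0729).

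Canonical Wnt target genes were more often higher than lower: 11 of 20 rose, 3 fell and 6 did not pass, with a median of 0.40. Without the 3 arrays of high Y-linked level 7 rose and 3 fell. The gene with the largest rise was Cd44, given above. Ephb3, a receptor that positions cells along the crypt axis, lay at 10.47, 10.86, 10.68, 10.80 and 11.13 in the K19-Wnt1/C2mE arrays and 8.96, 8.95 and 8.86 in wild-type. Sox9, a factor of progenitor cells, lay at 9.41, 10.14, 9.42, 10.65 and 9.95 in the K19-Wnt1/C2mE arrays and 7.997, 8.18 and 8.23 in wild-type. Ascl2, a factor of intestinal stem cells, lay at 7.42, 8.07, 7.64, 8.37 and 7.86 in the K19-Wnt1/C2mE arrays and 6.03, 6.43 and 6.53 in wild-type. The groups did not overlap, and array 4 was the highest of the transgenic arrays in Sox9 and Ascl2. Ephb3 rose by 1.87 (SE 0.13, adjusted p = 2.47e-09), Sox9 rose by 1.78 (SE 0.25, adjusted p = 1.06e-05) and Ascl2 rose by 1.54 (SE 0.18, adjusted p = 1.29e-06). Axin2, a negative feedback regulator and the common readout of the pathway, lay at 7.29, 7.55, 7.31, 8.04 and 7.74 in the K19-Wnt1/C2mE arrays and 6.88, 6.79 and 6.94 in wild-type. Array 4 was again the highest, no array overlapped wild-type, and Axin2 rose by 0.71 (SE 0.14, adjusted p = 0.000471, mean of probe sets 0.40). Rnf43, a ubiquitin ligase that removes Frizzled receptors, rose by 0.93 (SE 0.13, adjusted p = 1.01e-05). Sp5, a zinc finger repressor, lay at 6.26, 6.95, 6.44, 7.09 and 6.57 in the K19-Wnt1/C2mE arrays and 6.07, 6.04 and 6.21 in wild-type and rose by 0.56 (SE 0.17, adjusted p = 0.0108). Array 1 was just above the wild-type range of Sp5. The cell cycle regulator Ccnd1 rose by 1.38 (SE 0.12, adjusted p = 3.26e-08). Smaller rises were those of Apcdd1 (0.80), Bambi (0.41) and Notum (0.39), a lipase that inactivates Wnt ligands. Calls were lost for Bambi without K19-Wnt1/C2mE array 1 or 2 or wild-type array 1 or 2 (adjusted p up to 0.162) and for Notum without K19-Wnt1/C2mE array 4 or wild-type array 1, 2 or 3 (adjusted p up to 0.101).

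The stem cell receptor went the other way. Lgr5, the R-spondin receptor of crypt and gland base stem cells, lay at 5.29, 5.29, 6.28, 5.40 and 5.43 in the K19-Wnt1/C2mE arrays and 7.81, 7.63 and 8.01 in wild-type. Tnfrsf19, a receptor of the same stem cells, lay at 4.88, 4.74, 4.81, 4.99 and 4.72 in the K19-Wnt1/C2mE arrays and 6.45, 6.94 and 7.69 in wild-type. Both were lower in all 5 mice than in any wild-type mouse, with differences of -2.28 (SE 0.18, adjusted p = 7.92e-09, mean of probe sets -1.26) and -2.20 (SE 0.20, adjusted p = 5.22e-08, mean of probe sets -1.21). Array 3 had the highest transgenic level of Lgr5. Prox1, a homeobox factor, fell by 0.64 (SE 0.13, adjusted p = 0.000547, mean of probe sets -0.25). Relative to K19-C2mE, 7 of the 20 target genes were higher and 2 lower, where 3.44% and 4.44% of all genes were. Relative to K19-Nog/C2mE 7 were higher and 1 lower, where 7.71% and 5.08% of all genes were. These comparisons share the K19-Wnt1/C2mE arrays. Axin2 differed from K19-C2mE by 1.01 (SE 0.14, adjusted p = 0.000321) and from K19-Nog/C2mE by 1.31 (SE 0.14, adjusted p = 1.97e-05). Its mean was 6.58 ± 0.19 (SD, n = 3) and 6.28 ± 0.14 (n = 3) there against 7.59 ± 0.31 (n = 5). In K19-Wnt1, with the Wnt1 transgene alone, its mean was 6.96 ± 0.16 (n = 5) beside 6.87 ± 0.07 (n = 3) in wild-type. Lgr5 did not differ past the test from K19-C2mE (-0.37, adjusted p = 0.254) or K19-Nog/C2mE (0.26, adjusted p = 0.391).

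**Figure D3:**
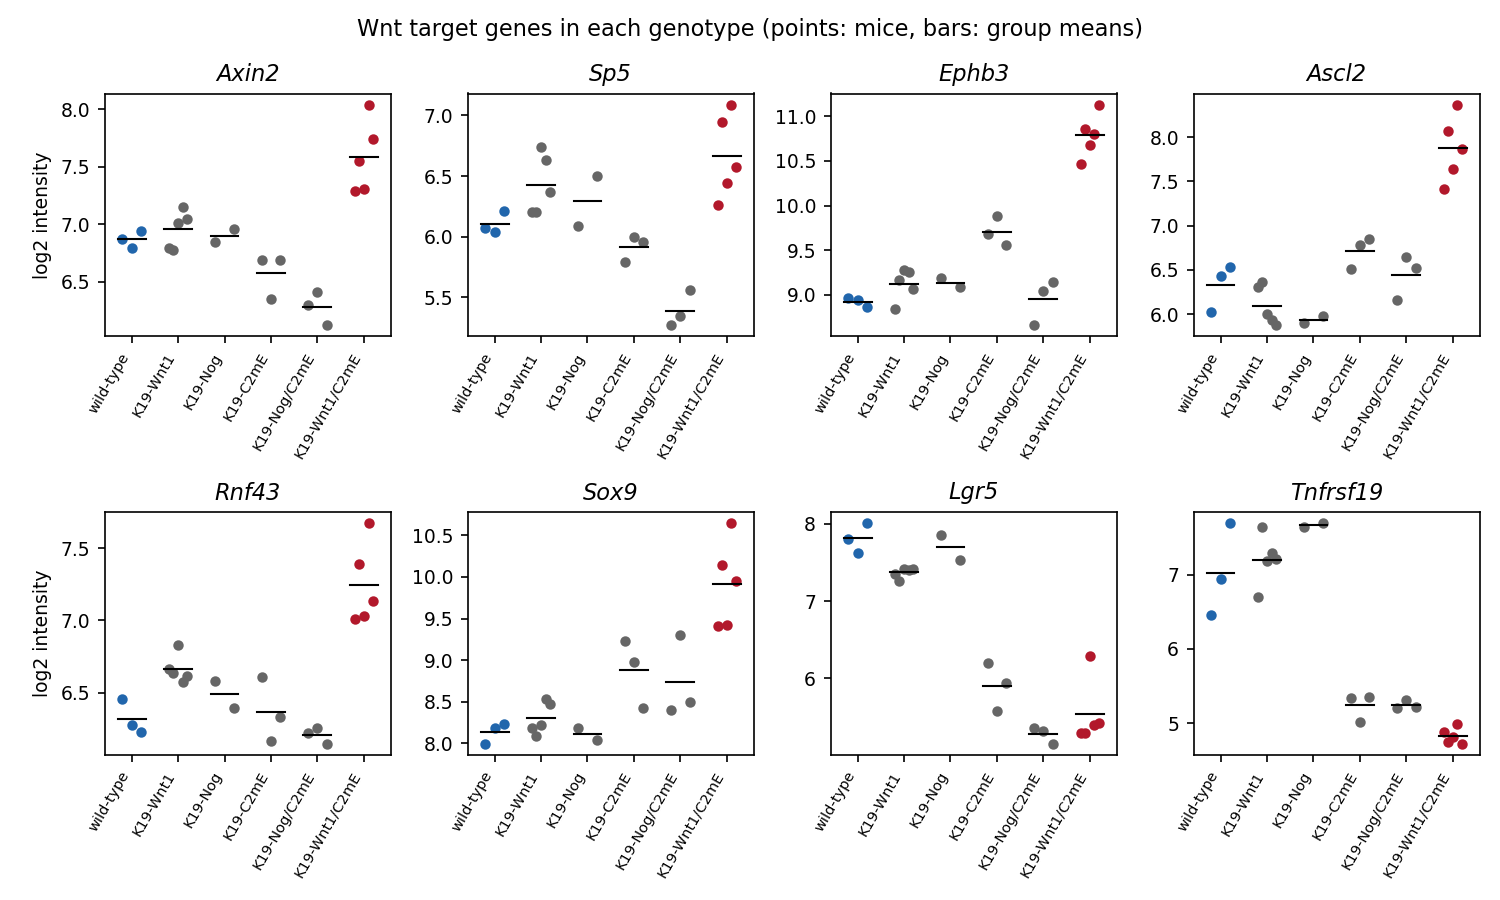
Log2 level (y axis) of 8 Wnt target genes in every array of 6 genotypes (x axis), with 1 point per mouse and a bar at the group mean. Axin2, Sp5, Ephb3, Ascl2, Rnf43 and Sox9 have their highest group mean in K19-Wnt1/C2mE, whereas Lgr5 and Tnfrsf19 are low in the C2mE genotypes.

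Promoter windows were searched because TCF factors bind DNA at CTTTGAT, on either strand. Of 12 target genes that have a window of 250 bases before to 50 after the start in the RefSeq table (GRCm38.p6), 2 held the motif in at least 1 window, beside 4.29% of all genes. They were Sp5, which rose, and Tnfrsf19, which fell. Tnfrsf19 also had a window without the motif, chr14:61046806-61047105, which is not among those printed below. Axin2 and Ephb3 had no match in their windows. A match is only a description of these letters. The windows of Sp5 and Tnfrsf19 are printed because the motif occurs in a gene of each direction, and that of Axin2 as the readout without a match, 5′ to 3′ along the gene, with CTTTGAT or its reverse complement ATCAAAG in capitals.
Sp5, chr2:70474673-70474972, plus strand: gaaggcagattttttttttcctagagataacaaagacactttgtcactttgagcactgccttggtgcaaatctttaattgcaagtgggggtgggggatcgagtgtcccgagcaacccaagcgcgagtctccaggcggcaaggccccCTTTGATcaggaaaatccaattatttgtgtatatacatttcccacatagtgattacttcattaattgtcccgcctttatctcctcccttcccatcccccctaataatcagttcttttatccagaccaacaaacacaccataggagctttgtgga
Tnfrsf19, chr14:61037938-61038237, minus strand: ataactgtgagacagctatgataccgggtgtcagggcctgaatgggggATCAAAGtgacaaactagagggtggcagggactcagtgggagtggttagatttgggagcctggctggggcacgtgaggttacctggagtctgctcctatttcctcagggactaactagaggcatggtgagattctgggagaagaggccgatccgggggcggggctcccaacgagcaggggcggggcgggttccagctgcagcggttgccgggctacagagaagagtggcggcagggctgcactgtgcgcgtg
Axin2, chr11:108920099-108920398, plus strand: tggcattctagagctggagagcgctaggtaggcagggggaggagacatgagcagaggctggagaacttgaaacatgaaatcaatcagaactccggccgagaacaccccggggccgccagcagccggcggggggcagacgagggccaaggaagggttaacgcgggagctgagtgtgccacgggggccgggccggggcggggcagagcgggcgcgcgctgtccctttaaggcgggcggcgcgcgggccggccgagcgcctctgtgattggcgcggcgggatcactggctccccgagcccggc

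Of 37 ligands, receptors and transducers of the Wnt pathway 15 rose and 5 fell (median 0.17). Without wild-type array 1 the counts were 11 and 3, and without wild-type array 3 they were 12 and 3 (9 rose and 2 fell without the 3 arrays of high Y-linked level). Among ligands, Wnt4 lay at 8.91, 10.52, 9.29, 9.18 and 9.21 in the K19-Wnt1/C2mE arrays and 6.76, 7.21 and 7.15 in wild-type and Wnt5a at 7.88, 7.88, 8.04, 8.36 and 8.49 in the K19-Wnt1/C2mE arrays and 6.39, 6.62 and 6.36 in wild-type. The groups were apart in both, with array 2 the highest for Wnt4, and these ligands rose by 2.38 (SE 0.25, adjusted p = 2.74e-07) and 1.67 (SE 0.19, adjusted p = 8.37e-07). Porcn, the acyltransferase that makes Wnt ligands active, rose by 1.02 (SE 0.13, adjusted p = 4.66e-06), and the coreceptor Lrp5 rose by 1.86 (SE 0.19, adjusted p = 1.85e-07). The receptor Fzd4 fell by 1.20 (SE 0.11, adjusted p = 5.44e-08). Ctnnb1, encoding beta-catenin, rose by 0.55 (SE 0.07, adjusted p = 4.48e-06). Tcf3 (Tcfe2a), a bHLH factor that the study lists with Wnt pathway genes, rose by 1.25 (SE 0.16, adjusted p = 3.92e-06). The other members that fell were Wnt9a (-0.85), Dvl1 (-0.42), Fzd5 (-0.36) and Wnt5b (-0.30), and the calls of Fzd5 and Wnt5b were lost without K19-Wnt1/C2mE array 1, 2 or 3 or wild-type array 1, 2 or 3 (adjusted p up to 0.176) and without wild-type array 1 or 3 (adjusted p up to 0.0625). Of 11 secreted antagonists 2 rose, Dkk3 by 1.34 (SE 0.14, adjusted p = 4.13e-07) and Notum, and 3 fell, Sfrp1 by 0.94 (SE 0.26, adjusted p = 0.00612), Sfrp5 by 0.61 (adjusted p = 2.59e-05, mean of probe sets -0.38) and Sfrp4 by 0.36 (adjusted p = 0.00232), where 1 rose and 1 fell without the 3 arrays of high Y-linked level.

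BMP and TGF-beta genes moved both ways, 13 of 35 higher and 9 lower (median 0.00), and 5 rose and 4 fell without the 3 arrays of high Y-linked level. Fst, the activin and BMP antagonist follistatin, lay at 10.12, 8.05, 8.50, 7.35 and 6.88 in the K19-Wnt1/C2mE arrays and 5.05, 5.26 and 5.08 in wild-type. Array 1 was the highest and all 5 arrays were above wild-type, and Fst rose by 3.05 (SE 0.67, adjusted p = 0.00117). Bmpr1b, a type I BMP receptor, lay at 5.08, 4.75, 5.33, 4.63 and 5.27 in the K19-Wnt1/C2mE arrays and 8.24, 7.98 and 8.20 in wild-type and fell by 3.13 (SE 0.23, adjusted p = 3.51e-09), without overlap. The ligand Bmp2 fell by 1.09 (SE 0.15, adjusted p = 1.03e-05). The activin subunit Inhbb rose by 1.60 (SE 0.19, adjusted p = 1.59e-06, mean of probe sets 0.91), the receptor Tgfbr2 rose by 1.13 (SE 0.11, adjusted p = 1.32e-07) and the transducer Smad3 rose by 0.45 (SE 0.08, adjusted p = 0.000269). Tgfb1 rose by 1.60 (adjusted p = 7.47e-06, mean of probe sets 0.59), but another of its probe sets was called lower. Noggin (Nog) itself differed by -0.23 (adjusted p = 0.456). Of 12 genes of the EGF receptor family 7 rose and 1 fell. Ereg, the ligand epiregulin, lay at 10.74, 9.25, 9.13, 9.13 and 8.64 in the K19-Wnt1/C2mE arrays and 5.90, 5.09 and 4.79 in wild-type. Egf, the ligand itself, lay at 4.81, 4.86, 5.22, 4.52 and 4.74 in the K19-Wnt1/C2mE arrays and 7.65, 7.66 and 7.62 in wild-type. These ligands moved in opposite directions in all 5 mice, with Ereg up by 4.12 (SE 0.48, adjusted p = 1.24e-06) and Egf at -2.82 (SE 0.27, adjusted p = 1.07e-07). Hbegf rose by 1.33 (SE 0.28, adjusted p = 0.000898) and Btc rose by 1.02 (SE 0.17, adjusted p = 0.000104), while the receptors Erbb3 and Erbb2 rose by 0.92 (adjusted p = 1.85e-06) and 0.51 (adjusted p = 0.000329).

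Cell cycle genes were higher in 15 and lower in 1 of 38 cases, with 22 not past the test and a median of 0.42. The share past the test, 42.1%, was near the 43.6% of all genes, of which 21.1% rose and 22.5% fell. Mki67, the usual marker of dividing cells, lay at 9.79, 9.37, 10.15, 9.14 and 8.87 in the K19-Wnt1/C2mE arrays and 9.48, 9.06 and 9.27 in wild-type. Its groups overlapped and the difference of 0.20 did not pass (adjusted p = 0.553). With the replicate number as a block it passed, at 0.44 (adjusted p = 0.0257). Several of the rises that passed were in DNA replication genes. Mcm4, a subunit of the replicative helicase, lay at 8.80, 8.47, 9.13, 8.71 and 8.24 in the K19-Wnt1/C2mE arrays and 7.47, 7.57 and 7.67 in wild-type and rose by 1.10 (SE 0.17, adjusted p = 3.78e-05), and array 3 was the highest. Mcm6 rose by 0.96 (SE 0.16, adjusted p = 6.48e-05). Mcm3 rose by 1.02 (adjusted p = 6.13e-05), with another probe set called lower. Top2a, the topoisomerase of mitosis, rose by 0.88 (SE 0.25, adjusted p = 0.00856, mean of probe sets 0.32, call lost), a call lost without wild-type array 2 (adjusted p = 0.0548). Uhrf1, which keeps DNA methylation at replication, rose by 0.85 (SE 0.23, adjusted p = 0.00611), and the single fall was that of the mitotic factor Foxm1, by 0.39 (adjusted p = 0.00115, mean of probe sets -0.089, call lost), with another probe set called higher. Per array the median of the list relative to the wild-type mean was 0.56, 0.32, 1.07, 0.19 and -0.08 for K19-Wnt1/C2mE arrays 1 to 5 and 0.09, -0.17 and 0.07 for wild-type. Array 5 lay within the wild-type range. The count of rises was 9 without wild-type array 1 and 8 without wild-type array 2.

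Secreted defence genes were among the largest rises, with 14 of 25 higher, 0 lower and a median of 1.61 (9 rose and 0 fell without the 3 arrays of high Y-linked level). Ltf, the iron-binding protein lactoferrin, lay at 12.56, 13.77, 12.66, 13.85 and 13.41 in the K19-Wnt1/C2mE arrays and 5.79, 6.04 and 6.85 in wild-type. Pigr, the receptor that carries IgA across the epithelium, lay at 13.91, 14.16, 13.86, 14.34 and 14.18 in the K19-Wnt1/C2mE arrays and 7.86, 7.25 and 8.37 in wild-type. Wfdc18, a small secreted antiprotease-like protein, lay at 12.48, 13.47, 12.76, 13.85 and 13.11 in the K19-Wnt1/C2mE arrays and 6.57, 5.99 and 6.88 in wild-type. Array 1 was the lowest transgenic array in Ltf and Wfdc18. Ltf rose by 7.02 (SE 0.90, adjusted p = 3.85e-06), Pigr rose by 6.26 (SE 0.49, adjusted p = 6.84e-09) and Wfdc18 rose by 6.66 (SE 0.59, adjusted p = 3.37e-08). Reg3b, a lectin that binds bacteria, lay at 11.93, 11.69, 11.93, 10.68 and 10.04 in the K19-Wnt1/C2mE arrays and 4.76, 4.53 and 4.85 in wild-type. Its relative Reg3g lay at 12.12, 11.78, 12.23, 10.52 and 9.84 in the K19-Wnt1/C2mE arrays and 5.54, 5.87 and 5.98 in wild-type. Arrays 4 and 5 were the lowest of the transgenic arrays in both. Reg3b rose by 6.54 (SE 0.97, adjusted p = 2.14e-05) and Reg3g rose by 5.50 (SE 0.95, adjusted p = 0.00011). Lrg1, a secreted glycoprotein, rose by 5.70 (SE 0.46, adjusted p = 8.94e-09).

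Of 39 chemokine and cytokine genes 17 rose and 3 fell (median 0.54), and 11 rose without wild-type array 2 (7 rose and 2 fell without the 3 arrays of high Y-linked level). Cxcl5, a neutrophil attractant, lay at 9.59, 10.16, 7.997, 9.86 and 8.63 in the K19-Wnt1/C2mE arrays and 3.99, 4.41 and 4.22 in wild-type. Il1rn, the natural interleukin-1 receptor antagonist, lay at 9.95, 9.58, 9.20, 9.41 and 9.23 in the K19-Wnt1/C2mE arrays and 6.51, 6.81 and 6.55 in wild-type. Il33, an alarmin, lay at 12.13, 11.29, 12.13, 11.24 and 11.33 in the K19-Wnt1/C2mE arrays and 9.78, 8.90 and 8.91 in wild-type. In none of the 3 did groups overlap. Cxcl5 rose by 5.04 (SE 0.78, adjusted p = 3.39e-05), Il1rn rose by 2.85 (SE 0.29, adjusted p = 2.42e-07) and Il33 rose by 2.43 (SE 0.41, adjusted p = 8.9e-05). Other neutrophil attractants differed from mouse to mouse. Cxcl2 lay at 9.87, 8.15, 6.68, 4.31 and 4.63 in the K19-Wnt1/C2mE arrays and 3.96, 3.62 and 3.94 in wild-type, and Cxcl1 at 11.10, 9.67, 9.20, 7.47 and 7.59 in the K19-Wnt1/C2mE arrays and 7.10, 6.995 and 7.07 in wild-type. Array 1 was the highest in both, and arrays 4 and 5 lay close above wild-type. Cxcl1 rose by 1.95 (SE 0.58, adjusted p = 0.0104), and Cxcl2 rose by 2.88 (SE 0.98, adjusted p = 0.0232), a call lost without K19-Wnt1/C2mE array 1 or 2 or wild-type array 1, 2 or 3 (adjusted p up to 0.0685). The members that fell were Cxcl12 by 1.43, Il18 by 0.64 and Cxcl13 by 0.47, and the call of Il18 was lost without wild-type array 2 (adjusted p = 0.0617).

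The pan-leukocyte gene Ptprc lay at 8.90, 7.21, 7.97, 8.44 and 8.48 in the K19-Wnt1/C2mE arrays and 7.37, 7.57 and 7.62 in wild-type, with overlapping groups and a difference of 0.68 (adjusted p = 0.0768). It passed without K19-Wnt1/C2mE array 2, at 0.93 (adjusted p = 0.00746), and with the squamous level as a covariate, at 1.06 (adjusted p = 0.00712). Of 20 macrophage and monocyte genes 4 rose, and 8 rose without K19-Wnt1/C2mE array 2, 2 without K19-Wnt1/C2mE array 1 or wild-type array 1 or 2, and 2 without the 3 arrays of high Y-linked level. The main count of rises, 20% of this list, was no higher than the 21.1% of all genes that rose. Of the list 0 genes fell, where 22.5% of all genes fell, and its median was 0.33 against -0.04. Per array the list median relative to the wild-type mean ranged over -0.29 to 0.84 in K19-Wnt1/C2mE and -0.05 to 0.01 in wild-type. Cd14, the lipopolysaccharide coreceptor, rose by 3.34 (SE 0.39, adjusted p = 1.31e-06) and Cd68, a lysosomal protein of macrophages, rose by 1.31 (SE 0.24, adjusted p = 0.000174). Fcgr3 and Mrc1 rose by 0.96 and 0.85, calls lost without K19-Wnt1/C2mE array 1 or wild-type array 1 or 2 (adjusted p up to 0.0636) and without K19-Wnt1/C2mE array 1, 4 or 5 or wild-type array 1, 2 or 3 (adjusted p up to 0.142). Adgre1, a surface receptor of macrophages, differed by 0.02 (adjusted p = 0.942). Of 10 neutrophil genes 3 rose, which were Ltf, S100a8 and S100a9 (1 rose and 0 fell without the 3 arrays of high Y-linked level). S100a8, a subunit of calprotectin, lay at 11.20, 9.33, 6.66, 7.81 and 7.62 in the K19-Wnt1/C2mE arrays and 4.20, 4.54 and 4.51 in wild-type. S100a9, its partner, lay at 11.28, 9.34, 6.98, 7.54 and 7.72 in the K19-Wnt1/C2mE arrays and 4.39, 5.50 and 4.98 in wild-type. Array 1 held the highest level of both and all transgenic arrays were above wild-type, with S100a8 up by 4.11 (SE 0.97, adjusted p = 0.00199) and S100a9 by 3.62 (SE 0.93, adjusted p = 0.00405).

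Of 15 T and NK cell genes 0 rose and 2 fell, Zap70 by 0.43 (adjusted p = 0.000208, mean of probe sets -0.27) and Cd3e by 0.28, the latter call lost without K19-Wnt1/C2mE array 4 or wild-type array 1 or 2 (adjusted p up to 0.115). Of 12 B and plasma cell genes 6 rose and 1 fell, the B cell factor Pax5 by 0.31 (adjusted p = 0.00284, mean of probe sets -0.18). Jchain, which joins IgA units, lay at 12.87, 12.25, 10.90, 11.87 and 13.04 in the K19-Wnt1/C2mE arrays and 8.07, 9.04 and 7.49 in wild-type. Igha, the IgA heavy chain, lay at 14.73, 14.50, 13.74, 14.13 and 14.84 in the K19-Wnt1/C2mE arrays and 11.11, 11.69 and 10.79 in wild-type. Ighm, the IgM heavy chain, lay at 11.79, 7.81, 11.15, 12.37 and 11.42 in the K19-Wnt1/C2mE arrays and 6.63, 7.76 and 6.69 in wild-type. Jchain and Igha showed no overlap, whereas K19-Wnt1/C2mE array 2 was at the level of wild-type array 2 in Ighm. Jchain rose by 3.99 (SE 0.63, adjusted p = 4.35e-05), Igha rose by 3.19 (SE 0.48, adjusted p = 2.58e-05) and Ighm rose by 3.88 (SE 0.89, adjusted p = 0.00161, mean of probe sets 0.98). The call of Ighm was lost without the 3 arrays of high Y-linked level, at 3.02 (adjusted p = 0.16). Mzb1, a chaperone of antibody assembly, and Sdc1, a surface proteoglycan of plasma cells and epithelium, rose by 1.87 and 1.95 (adjusted p = 0.00181 and 1.72e-11). Without the 3 arrays of high Y-linked level 3 genes of this list rose and 1 fell. Of 10 mast cell genes 4 rose and 1 fell (2 rose and 1 fell without the 3 arrays of high Y-linked level). The mucosal mast cell proteases Mcpt2 and Mcpt1 rose by 3.06 (SE 0.30, adjusted p = 1.16e-07) and 3.03 (SE 0.52, adjusted p = 9.95e-05), Mcpt4 rose by 1.29 and Fcer1a, a chain of the IgE receptor, by 1.13, while Ms4a2, another chain of that receptor, fell by 1.17 (adjusted p = 0.00337, 0.00637 and 0.00032).

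Interferon and antigen presentation genes rarely passed the test, with 1 of 23 higher, 2 lower and a median of -0.21. Ifit1, an antiviral protein induced by interferon, lay at 4.58, 4.66, 5.17, 5.58 and 5.63 in the K19-Wnt1/C2mE arrays and 7.39, 7.50 and 6.17 in wild-type. The groups did not overlap and Ifit1 fell by 1.89 (SE 0.39, adjusted p = 0.000719). Rsad2, another interferon-induced protein, fell by 1.29 (SE 0.36, adjusted p = 0.00724), and the class I gene H2-D1 rose by 0.57 (adjusted p = 0.000309, mean of probe sets 0.20, call lost), with another of its probe sets called lower. Against the other C2mE genotypes more of the list was lower, 5 genes against K19-C2mE and 8 against K19-Nog/C2mE, where 4.44% and 5.08% of all genes were, with 0 higher in each and medians of -0.58 and -0.84. Ifit1 differed from K19-C2mE by -2.76 (SE 0.39, adjusted p = 0.000341) and from K19-Nog/C2mE by -1.69 (SE 0.39, adjusted p = 0.00767).

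Matrix genes rose in 16 and fell in 2 of 33 cases (median 0.65), and 14 rose and 5 fell without K19-Wnt1/C2mE array 5 (9 rose and 1 fell without the 3 arrays of high Y-linked level). Col18a1, a basement membrane collagen, lay at 10.60, 10.80, 10.88, 11.12 and 11.01 in the K19-Wnt1/C2mE arrays and 8.44, 8.51 and 8.39 in wild-type. It was higher in every transgenic array, by 2.44 (SE 0.19, adjusted p = 8.38e-09). Plat and Plaur, which act in plasminogen activation, rose by 2.54 (SE 0.50, adjusted p = 0.00047, mean of probe sets 1.27) and 2.04 (SE 0.44, adjusted p = 0.000881). The metalloproteinases varied among mice. Mmp13 lay at 8.98, 9.42, 7.44, 3.36 and 4.16 in the K19-Wnt1/C2mE arrays and 3.34, 3.41 and 3.59 in wild-type, and Mmp10 at 10.70, 10.51, 9.61, 6.53 and 7.57 in the K19-Wnt1/C2mE arrays and 6.31, 6.03 and 5.86 in wild-type. Arrays 1 to 3 were high in both, while array 4 was within the wild-type range for Mmp13 and next to it for Mmp10. Mmp10 rose by 2.91 (SE 0.78, adjusted p = 0.00504), and Mmp13 rose by 3.22 (SE 1.13, adjusted p = 0.0269), a call lost without K19-Wnt1/C2mE array 1, 2 or 3 or wild-type array 1, 2 or 3 (adjusted p up to 0.0733). The falls were Col6a2 by 0.39 and Mmp11 by 0.40, calls lost without K19-Wnt1/C2mE array 2 or 3 or wild-type array 1 or 2 (adjusted p up to 0.123) and without wild-type array 1 (adjusted p = 0.189). Of 13 fibroblast genes 6 fell and 3 rose, the latter 1 without K19-Wnt1/C2mE array 4 or 5 or any 1 wild-type array (0 rose and 5 fell without the 3 arrays of high Y-linked level). Mfap5, a microfibril protein, lay at 5.15, 4.78, 6.33, 4.49 and 5.31 in the K19-Wnt1/C2mE arrays and 7.82, 8.36 and 7.79 in wild-type. All transgenic arrays were below wild-type, and Mfap5 fell by 2.78 (SE 0.32, adjusted p = 1.21e-06). The matrix protein gene Dpt fell by 1.85 (SE 0.17, adjusted p = 3.67e-08), Clec3b, encoding tetranectin, fell by 1.73 (SE 0.20, adjusted p = 1.4e-06) and Pi16, a gene of adventitial fibroblasts, fell by 1.51 (SE 0.18, adjusted p = 1.25e-06, mean of probe sets -0.80). The rises were S100a4 by 1.15 (adjusted p = 0.00211), Thy1 by 0.74 and Fap by 0.34, and the calls of Thy1 and Fap were lost without K19-Wnt1/C2mE array 3, 4 or 5 or wild-type array 1, 2 or 3 (adjusted p up to 0.121) and without K19-Wnt1/C2mE array 1, 4 or 5 or wild-type array 1, 2 or 3 (adjusted p up to 0.17).

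Smooth muscle genes fell in 13 of 16 cases and rose in 0 (median -0.65). Myh11, the smooth muscle myosin heavy chain, lay at 8.66, 8.04, 8.23, 8.69 and 9.22 in the K19-Wnt1/C2mE arrays and 9.25, 9.83 and 9.83 in wild-type. Cnn1, encoding calponin, lay at 8.52, 7.51, 8.37, 7.78 and 8.50 in the K19-Wnt1/C2mE arrays and 8.87, 9.64 and 9.46 in wild-type. The groups did not overlap, although wild-type array 1 was close to the highest transgenic arrays in both. Myh11 fell by 1.07 (SE 0.26, adjusted p = 0.00261, mean of probe sets -0.60) and Cnn1 fell by 1.19 (SE 0.31, adjusted p = 0.00421). Ckb, a brain-type creatine kinase, fell by 3.85 (SE 0.28, adjusted p = 2.77e-09). Pgm5, of muscle adhesion sites, fell by 1.36 (SE 0.20, adjusted p = 2.04e-05) and Synpo2, an actin-binding protein, fell by 1.53 (SE 0.20, adjusted p = 4.42e-06, mean of probe sets -0.28, call lost). Of 15 endothelial genes 3 rose, Vwf, the clotting factor carrier, by 2.08 (SE 0.34, adjusted p = 5.87e-05), the angiopoietin receptor Tek by 1.75 (SE 0.32, adjusted p = 0.000192) and Sox17 by 1.50 (adjusted p = 0.00411). The 2 that fell were Cldn5, given above, and Plvap by 0.56, a call lost without K19-Wnt1/C2mE array 4 or wild-type array 1 or 2 (adjusted p up to 0.0818) (2 rose and 0 fell without the 3 arrays of high Y-linked level). Tek was also higher than in K19-C2mE by 1.80 (SE 0.32, adjusted p = 0.00171) and than in K19-Nog/C2mE by 1.85 (SE 0.32, adjusted p = 0.00079). Ramp2, an adrenomedullin receptor subunit of endothelium, differed by -0.13 (adjusted p = 0.588). Of 16 enteric neuron and glia genes 3 rose and 5 fell, the latter 3 without K19-Wnt1/C2mE array 2 or 4 or wild-type array 1 or 3, and 1 without the 3 arrays of high Y-linked level. The glial protein S100b rose by 1.35 (SE 0.19, adjusted p = 1.05e-05), the receptor Ret rose by 1.10 (SE 0.15, adjusted p = 8.4e-06) and the neuropeptide gene Npy rose by 1.24 (SE 0.35, adjusted p = 0.00808). Penk, the enkephalin precursor, fell by 1.75 (SE 0.27, adjusted p = 4.04e-05), Prph fell by 0.65 and Elavl4 by 0.44 (adjusted p = 0.00358 and 0.00766). Vip and Sox10 fell by 0.75 and 0.24, calls lost without K19-Wnt1/C2mE array 1, 2, 4 or 5 or wild-type array 1 or 3 (adjusted p up to 0.196) and without K19-Wnt1/C2mE array 2 or 4 or wild-type array 1, 2 or 3 (adjusted p up to 0.0937).

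Respiratory chain genes fell evenly, 27 of 34 lower and 0 higher, with a median of -0.61. Per array the list median relative to wild-type was -0.71, -0.67, -0.64, -0.58 and -0.55, so that the 5 mice were close to each other. Cox7a1, a cytochrome oxidase subunit of muscle and oxidative cells, lay at 4.80, 4.57, 6.76, 4.41 and 4.48 in the K19-Wnt1/C2mE arrays and 10.74, 10.71 and 10.71 in wild-type. Its fall of 5.71 (SE 0.55, adjusted p = 9.7e-08) was much larger than that of the other members. Ndufa4 fell by 1.56 (SE 0.16, adjusted p = 2.23e-07), Ndufs1, a core subunit of complex I, fell by 1.07 (SE 0.08, adjusted p = 8e-09), Uqcrfs1 of complex III fell by 0.96 (SE 0.07, adjusted p = 1.42e-09) and Ndufb9 fell by 0.95 (SE 0.08, adjusted p = 3.47e-08). Ppargc1a, a coactivator of mitochondrial biogenesis, differed by -0.18 (adjusted p = 0.532). Genes of protein folding in the secretory pathway rose in 11 of 24 cases and fell in 2 (median 0.22). Agr2, a disulfide isomerase needed for mucin production, lay at 13.61, 14.18, 13.91, 13.65 and 13.90 in the K19-Wnt1/C2mE arrays and 11.93, 12.36 and 12.25 in wild-type. Hspa5, the main chaperone of the endoplasmic reticulum, lay at 13.10, 13.09, 13.03, 13.09 and 13.13 in the K19-Wnt1/C2mE arrays and 12.31, 12.07 and 12.09 in wild-type. Groups did not overlap, and Agr2 rose by 1.67 (SE 0.20, adjusted p = 1.97e-06) and Hspa5 rose by 0.93 (SE 0.13, adjusted p = 7.68e-06, mean of probe sets 0.42). Ern2, the stress sensor of mucous cells, rose by 1.57 (SE 0.20, adjusted p = 2.98e-06) and Pdia3 rose by 0.83 (SE 0.09, adjusted p = 2.58e-07, mean of probe sets 0.54). Pdia4 rose by 0.78 (adjusted p = 1.49e-05, mean of probe sets 0.24), with another of its probe sets called lower. The falls were Xbp1, given above, and Ddit3 by 0.34, a call lost without K19-Wnt1/C2mE array 2, 3, 4 or 5 or wild-type array 1, 2 or 3 (adjusted p up to 0.165).

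**Figure D4:**
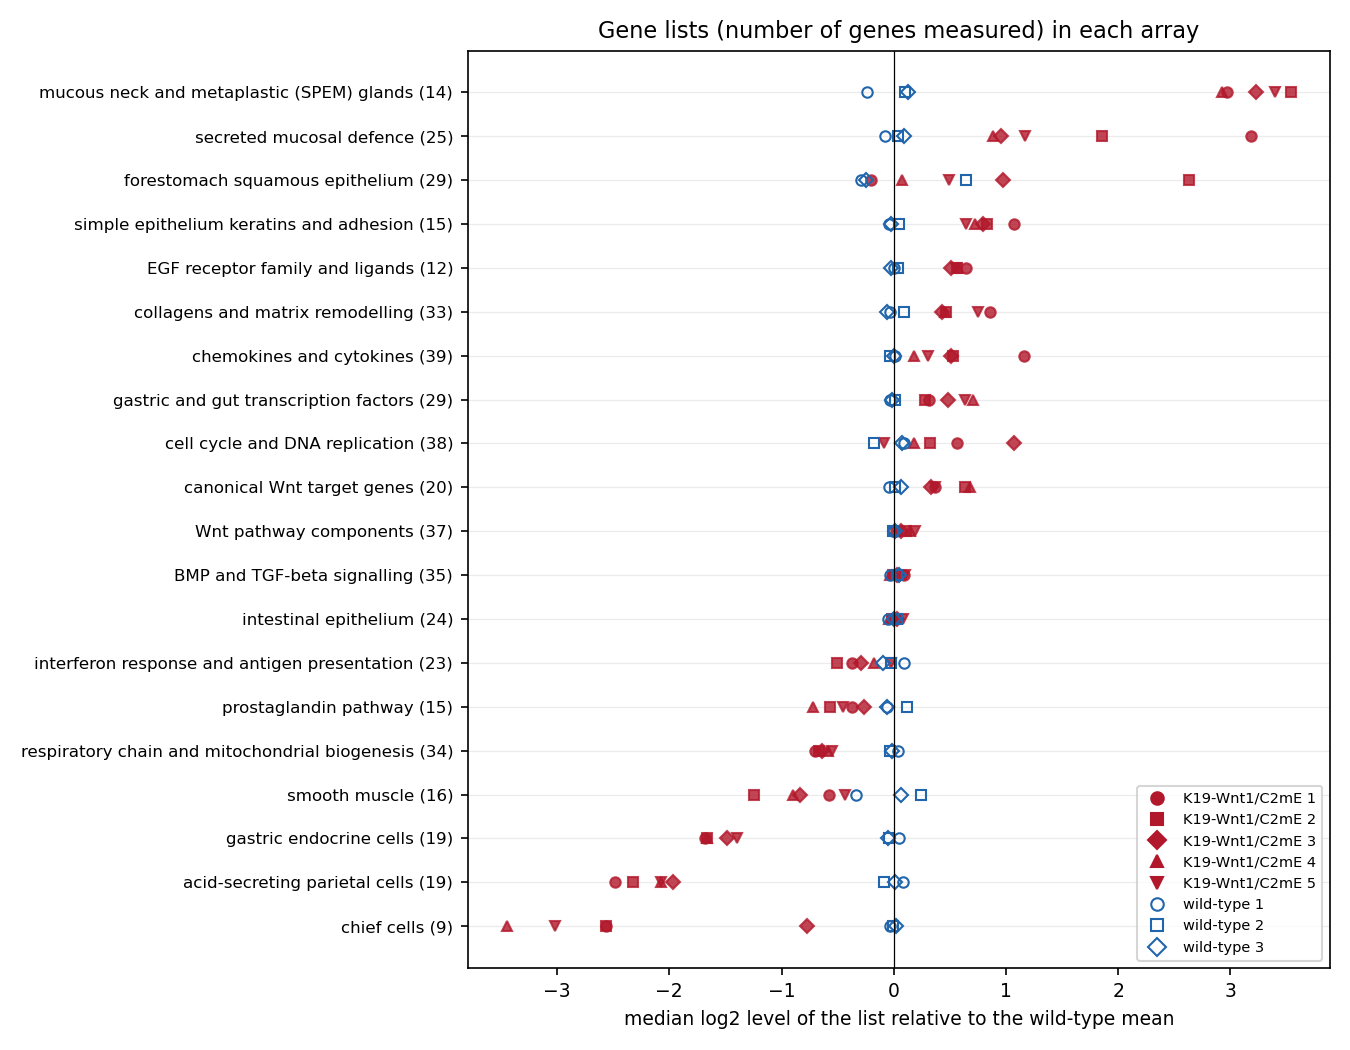
Median log2 level of each of 20 gene lists (rows) per array relative to the wild-type mean (x axis), with K19-Wnt1/C2mE as filled and wild-type as open symbols, each array with its own symbol. The SPEM list lies near 3 and the parietal list near -2 in all 5 K19-Wnt1/C2mE arrays, while the squamous, cell cycle and cytokine lists spread among mice.

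Of 29 squamous genes 8 rose and 0 fell (median 0.84), and 1 showed no overlap of the groups. Without K19-Wnt1/C2mE array 2, 5 rose, without wild-type array 1 or 3, 4, and without the 3 arrays of high Y-linked level 1. Krt14, a basal keratin, lay at 5.59, 11.002, 7.93, 9.02 and 9.87 in the K19-Wnt1/C2mE arrays and 4.76, 6.06 and 5.31 in wild-type. Krt5, its partner, lay at 6.73, 9.35, 7.79, 8.79 and 9.62 in the K19-Wnt1/C2mE arrays and 6.07, 6.84 and 6.18 in wild-type. Array 1 was within the wild-type range in both, and array 2 was the highest in Krt14 and array 5 in Krt5. Krt14 rose by 3.30 (SE 0.75, adjusted p = 0.00153, mean of probe sets 1.88) and Krt5 rose by 2.09 (SE 0.45, adjusted p = 0.000871). Krt13 and Krt6b, keratins of stratified epithelium, rose by 2.84 and 2.41, calls lost without K19-Wnt1/C2mE array 2, 3, 4 or 5 or wild-type array 1 or 3 (adjusted p up to 0.253) and without K19-Wnt1/C2mE array 2, 4 or 5 or wild-type array 1 or 3 (adjusted p up to 0.181). With the squamous level itself as a covariate 4 rose and 4 fell. Ivl, encoding involucrin of the cornified layer, was the member without overlap, at 9.56, 8.52, 9.61, 5.42 and 6.79 in the K19-Wnt1/C2mE arrays and 4.27, 4.59 and 4.63 in wild-type. Its order among mice was not that of the keratins, as arrays 1 and 3 were the highest, and Ivl rose by 3.48 (SE 0.70, adjusted p = 0.00051). Against K19-C2mE 17 of the 29 genes were lower, where 4.44% of all genes were. Pancreatic genes fell in 6 of 9 cases and rose in 1, Cela1, an elastase, by 2.72 (SE 0.29, adjusted p = 4.6e-07). Clps, the lipase cofactor, lay at 11.11, 11.12, 14.63, 11.26 and 10.10 in the K19-Wnt1/C2mE arrays and 15.04, 15.04 and 15.04 in wild-type. Array 3 was close to wild-type and the others were lower. Clps fell by 3.40 (SE 0.92, adjusted p = 0.00551) and Cel fell by 3.47 (SE 0.29, adjusted p = 1.38e-08). Cpb1 and Cela2a, a carboxypeptidase and an elastase, fell by 0.92 and 0.98 (adjusted p = 5.62e-05 and 1.86e-05). The highest transgenic level of Cpb1 was 5.59, in array 3, far below that of Clps. Of 9 adipocyte genes 4 fell (median -0.45), where 22.5% of all genes fell. Lpl, the lipoprotein lipase, lay at 6.84, 7.06, 8.70, 7.76 and 7.99 in the K19-Wnt1/C2mE arrays and 12.93, 13.11 and 12.72 in wild-type and fell by 5.25 (SE 0.47, adjusted p = 4.11e-08). Fabp4 fell by 1.64 (SE 0.31, adjusted p = 0.000269), Plin4 fell by 1.24 (SE 0.17, adjusted p = 8.32e-06) and Lep fell by 0.33, the last call lost without K19-Wnt1/C2mE array 1, 3, 4 or 5 or wild-type array 1, 2 or 3 (adjusted p up to 0.154). Among 5 red blood cell genes Alas2 rose, by 1.56 (SE 0.36, adjusted p = 0.00174). The pancreatic genes moved in both directions and stood at unlike levels, and the adipocyte genes fell by unlike amounts. These lists therefore do not measure an amount of tissue, and the part of these tissues in the comparison was not tested.

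Some changes set K19-Wnt1/C2mE apart from K19-C2mE and K19-Nog/C2mE as well. Against K19-C2mE 1434 genes (7.88%) differed, 626 higher and 808 lower, and against K19-Nog/C2mE 2326 (12.8%), 1402 higher and 924 lower. Of the probe sets 5.71% differed from K19-C2mE and 14.1% from K19-Nog/C2mE. The gene count against K19-C2mE was 702 without K19-C2mE array 1 and 624 without K19-C2mE array 3, and that against K19-Nog/C2mE was 1222 without K19-Nog/C2mE array 1. The median log2 level of squamous genes was 10.86, 9.02 and 11.64 in K19-C2mE arrays 1 to 3. In K19-Nog/C2mE arrays 1 to 3 it was 5.90, 5.98 and 5.77. With this level as a covariate the gene counts were 156 and 1219. Single genes named against these 2 genotypes are given from the main fit only. Among genes past the test without overlap of the arrays, Wfdc18 was in the 5 largest rises of both comparisons. It differed by 3.09 (SE 0.59, adjusted p = 0.00306) and 3.91 (SE 0.59, adjusted p = 0.00027). Its mean was 10.04 ± 0.44 (SD, n = 3) in K19-C2mE, 9.22 ± 2.21 (n = 3) in K19-Nog/C2mE and 13.13 ± 0.55 (n = 5) in K19-Wnt1/C2mE, while K19-Wnt1 had 6.15 ± 0.36 (n = 5). Onecut2 was higher than in K19-C2mE by 2.27 (SE 0.39, adjusted p = 0.00134) and differed from K19-Nog/C2mE by 0.47 (adjusted p = 0.488). Fst was higher than in K19-C2mE by 2.40 (SE 0.67, adjusted p = 0.0325), St6gal2, a sialyltransferase, by 2.37 (SE 0.57, adjusted p = 0.0136) and Acnat2, an acyl transferase, by 2.26 (SE 0.31, adjusted p = 0.000229). Against wild-type St6gal2 rose by 2.28 (SE 0.57, adjusted p = 0.00316) and Acnat2 rose by 2.97 (SE 0.31, adjusted p = 2.74e-07).

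The largest rises and falls given here are of genes past the test whose arrays did not overlap between the groups. Gsdmc2, a gasdermin, was the largest such fall in both comparisons. It lay at 5.22, 4.37, 5.47, 6.81 and 7.89 in the K19-Wnt1/C2mE arrays and 8.67, 8.63 and 7.18 in wild-type, and had means of 10.17 ± 0.47 (SD, n = 3) in K19-C2mE and 10.51 ± 1.20 (n = 3) in K19-Nog/C2mE. The differences were -4.22 (SE 0.62, adjusted p = 0.000416) and -4.56 (SE 0.62, adjusted p = 0.000105), where K19-Wnt1/C2mE arrays 4 and 5 were higher than arrays 1 to 3. Lgals2, a galectin of the gut, differed from K19-C2mE by -2.94 (SE 0.53, adjusted p = 0.00183), Mogat1, a monoacylglycerol acyltransferase, by -3.29 (SE 0.81, adjusted p = 0.0151) and Ddx60, an antiviral helicase, by -2.99 (SE 0.25, adjusted p = 1.56e-06). Krt4, a squamous keratin, differed from K19-C2mE by -3.54 (SE 0.74, adjusted p = 0.00551) and from wild-type by 0.28 (adjusted p = 0.783). Lgals2, Mogat1 and Ddx60 were also lower than in wild-type, at -3.86, -4.13 and -2.47 (adjusted p = 7.85e-06, 0.000395 and 1.78e-07). Against K19-Nog/C2mE the largest rises were Cyp2f2 at 4.25 (SE 0.52, adjusted p = 4e-05), the squamous keratins Krt14 at 4.15 and Krt6b at 3.65, and Gp2, a glycoprotein of M cells and acini, at 3.87 (SE 0.73, adjusted p = 0.00174). Cyp2f2, a cytochrome P450, lay at 6.13, 10.12, 8.55, 8.61 and 9.14 in the K19-Wnt1/C2mE arrays and 4.50, 4.70 and 4.26 in wild-type. Array 1, which has the lowest squamous level of the 5, was also the lowest in Cyp2f2, and the part of squamous tissue in this gene was not tested. The largest falls beside Gsdmc2 were Ifit1bl1 at -2.50, Apob at -2.42, Gbp2 at -2.32 and Gsta2 at -2.24, each past the test in that comparison.

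The mice of the K19-Wnt1/C2mE group differed from each other in a few gene groups. The surface, chief and parietal genes Muc5ac, Pgc, Chia1, Cblif and Atp4a were highest in array 3, and S100a8, S100a9 and Cxcl2 in array 1. Il6, an inflammatory cytokine that was named after its values were seen, lay at 9.52, 6.26, 3.76, 3.36 and 3.60 in the K19-Wnt1/C2mE arrays and 3.15, 3.12 and 3.28 in wild-type. It was high in array 1, above wild-type in array 2 and near wild-type in the others, and its difference of 2.12 did not pass (adjusted p = 0.0812). By contrast Cldn2, Cftr, Cd44 and Epcam ranged over 13.67 to 13.85, 11.51 to 12.03, 12.53 to 12.81 and 13.09 to 13.29 in the same 5 mice.

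**Figure D5:**
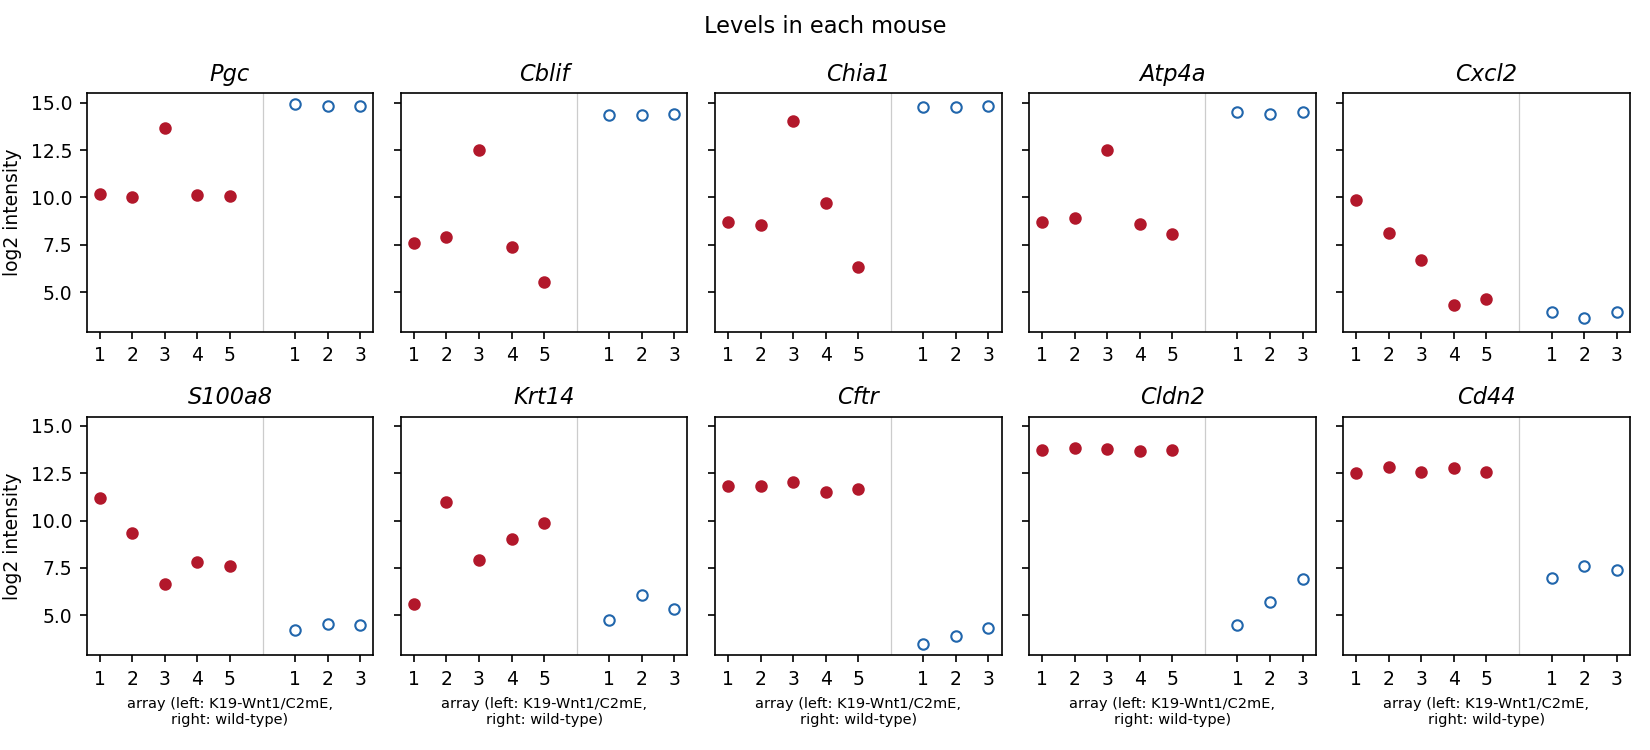
Log2 level (y axis) of 10 genes in K19-Wnt1/C2mE arrays 1 to 5 (filled) and wild-type arrays 1 to 3 (open) along the x axis. Pgc, Cblif, Chia1 and Atp4a are highest of the transgenic arrays in array 3, Cxcl2 and S100a8 in array 1 and Krt14 in array 2, while Cftr, Cldn2 and Cd44 are nearly level across the 5 mice.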

How the data were processed

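Glandular stomach RNA of 21 mice was hybridised to Affymetrix whole-genome mouse arrays, 1 per mouse, of which 5 K19-Wnt1/C2mE and 3 wild-type arrays were compared. The authors made the deposited intensity of each probe set by RMA, run in Rosetta Resolver with Affymetrix Power Tools, and deposited also the log10 ratio of each intensity to the wild-type average, which is limited to 2 on that scale. The intensities were taken to log2 with no further normalization. Of 45037 probe sets 34945 have 1 gene symbol, 932 several and 9160 none in the platform annotation, and the brightest probe set stood for each of 18193 genes. limma 3.58.1 (R 4.3.3) fitted all 21 arrays with 1 coefficient per genotype, with Benjamini-Hochberg adjustment over all probe sets or over all genes, and the fit was tested on simulated data. Nothing in the labels says whether mice were littermates or handled together, so p-values measure the spread between these arrays. No depth applies to arrays, and their number limits the precision.

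Named genes were the 15 largest rises and 15 largest falls without overlap of the groups. To these were added up to 5 called genes with the largest difference in each of 38 gene lists and the genes named by the study. So were the 5 largest called rises and falls without overlap against K19-C2mE and K19-Nog/C2mE, and genes that define a cell type. The others, such as Ascl2, Rnf43, Sp5, Ccnd1, Il6 and the single members of a list that moved against it, were chosen after their values were seen. The comparison, its members and the lists were chosen with earlier results of these data known. List members that the annotation does not name by the same symbol were not analysed here. Alternatives were other samples in the fit, a replicate block, a dim filter, centring, a variance trend, the ratio table, a 2-fold limit, the methods' t-test, covariates for the Y-linked and squamous levels, and leaving out each array. Promoters came from RefSeq (GRCm38.p6).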

Additional observations from a re-analysis of the deposited data

Results flagged for a closer look

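In 24 of the 249 genes named in the text, 1 of the 5 K19-Wnt1/C2mE arrays lay far from the others, as its gap to the nearest array took more of the group's range than Dixon's critical value of 0.71 allows. Chance alone does this in about 1 in 20 groups. In 17 of them array 3 was the highest. For each the share of the range and the log2 levels of that array and the next are given. They were Apoa1 (0.754, 10.92 against 7.82), Atp4a (0.804, 12.48 against 8.93), Atp4b (0.785, 12.27 against 8.52), Clps (0.743, 14.63 against 11.26), Cox7a1 (0.834, 6.76 against 4.80), Cpb1 (0.824, 5.59 against 4.97), Fabp3 (0.752, 8.20 against 5.45), Gpm6a (0.877, 4.84 against 3.44), Kcne2 (0.712, 7.27 against 4.91), Kcnj16 (0.758, 7.38 against 5.62), Lgr5 (0.859, 6.28 against 5.43), Pdia2 (0.712, 10.85 against 6.77), Pgc (0.965, 13.66 against 10.16), Pnliprp2 (0.896, 9.20 against 6.40), Rnase1 (0.712, 7.29 against 5.77), Slc26a7 (0.819, 5.64 against 3.66) and Smim38 (0.835, 11.06 against 7.50). Array 3 was also the lowest for Ret (0.735, 6.53 against 7.07). Array 1 was the highest for Ereg (0.712, 10.74 against 9.25) and Hbegf (0.725, 10.95 against 9.67). Array 2 was the highest for Wnt4 (0.766, 10.52 against 9.29) and the lowest for Ighm (0.732, 7.81 against 11.15). Array 4 was the lowest for Cym (0.716, 11.53 against 12.88) and Foxa2 (0.723, 7.87 against 9.13).

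Of the 37 gene lists, 2 had such an array in their median relative to the wild-type mean. The neutrophil list was highest in array 1, at 1.32 with the next array at 0.24 (share 0.748), which is also the array with the highest S100a8, S100a9, Cxcl1 and Cxcl2. The adipocyte list was lowest in array 4, at -0.70 with the next array at -0.41 (share 0.9). What these arrays share was not tested.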

How the results depend on the processing

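K19-Wnt1/C2mE differed from wild-type in 16432 of 45037 probe sets, and without any 1 array in 12745 to 16103. Without the 3 arrays of high Y-linked level the count was 7138 probe sets (3849 genes), in a fit with 1 wild-type array whose spread is taken from the other groups. When a 2-fold change was asked for as well, it was 2803 probe sets (1494 genes). With dim probe sets left out 6904 were higher and 4904 lower, against 7916 and 8516 over all, and the methods' t-test gave 11421 after Benjamini-Hochberg. The count against K19-C2mE was 2570 probe sets, and 22 by the methods' t-test after Benjamini-Hochberg (6157 at its unadjusted threshold), 706 with only the genotypes compared in the fit, 191 with the squamous level as a covariate, 723 without the arrays of high Y-linked level and 522 with 2-fold as well. Leaving out 1 array gave 1090 to 2890, the lowest without K19-C2mE array 3 and 1116 without K19-C2mE array 1. The count against K19-Nog/C2mE was 6368, and 865 by the methods' t-test, 2407 with only the genotypes compared, 3683 with the squamous level and 616 with 2-fold as well, and leaving out 1 array gave 3686 (without K19-Nog/C2mE array 1) to 6418. Replicate numbers did not pair the arrays, as the deviations of same-numbered arrays correlated at 0.04, 0.18 and 0.02, and only array 2 correlated best with its own number. With the replicate number as a block the counts were 15007 against wild-type and 1545 against K19-C2mE, 15 named genes lost their call, and 30 of the 38 cell cycle genes were higher.

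Of the 249 named genes 231 passed the test against wild-type. Calls were lost for 28 of them in at least 1 fit without 1 array, for 19 with the level of Y-linked genes and 15 with the squamous level as a covariate, for 60 without the arrays of high Y-linked level, for 38 by the methods' t-test, for 15 with only the genotypes compared, for 14 with the mean of all probe sets of a gene and for 5 each with centred arrays and with a variance trend. Without the arrays of high Y-linked level the lost calls were those of Alas2, Apcdd1, Bambi, Cd3e, Cdhr5, Chia1, Cldn4, Cldn5, Clps, Cxcl1, Cxcl13, Cxcl2, Dcc, Ddit3, Dvl1, Elavl4, Fap, Fcer1a, Fcgr3, Foxa2, Fut2, Fzd5, Ghrl, Gsta2, Ighm, Krt13, Krt14, Krt5, Krt6b, Lep, Mcpt4, Mmp10, Mmp11, Mmp13, Mrc1, Muc2, Mzb1, Notum, Npy, Olfm4, Pdx1, Pla2g4a, Plvap, Prph, Rsad2, Runx3, S100a4, S100a8, S100a9, Sfrp1, Sfrp4, Sox10, Sox17, Sp5, St6gal2, Thy1, Vip, Vsig1, Wnt5b and Xbp1. With the mean of probe sets they were those of Apcdd1, Col6a2, Cxcl13, Dcc, Ddit3, Foxm1, Fzd5, H2-D1, Krt13, Krt6b, Mrc1, Runx3, Synpo2 and Top2a. By contrast 8 of the 18 named genes that did not pass the test did so in at least 1 alternative, namely Apob, Gast, Gbp2, Il6, Krt19, Mki67, Ptges and Ptprc. None of the 220 measured after dim probe sets were left out lost its call there, nor did any in the deposited ratio table. Changes of sign were few. With the level of Y-linked genes as a covariate Cdh1 was at -0.065, Krt4 at -0.15 and Ppargc1a at 0.0044. With the replicate block Adgre1 was at -0.12, Cdh1 at -0.00077, Gast at 0.056 and the median of Wnt pathway components at -0.0013. With the squamous level Krt4 was at -1.23. Without the arrays of high Y-linked level Adgre1 was at -0.33, Cdx1 at -0.084, Krt13 at -0.75 and Krt4 at -1.94. Without 1 array Adgre1 was at -0.037 (K19-Wnt1/C2mE array 4), -0.18 (array 5) and -0.033 (wild-type array 3), Cdh1 at -0.00059 (K19-Wnt1/C2mE array 1 or 3), -0.021 (array 4) and -0.033 (wild-type array 3), and Krt4 at -0.30 (K19-Wnt1/C2mE array 2), -0.47 (wild-type array 1) and -0.13 (wild-type array 3). The median of secreted Wnt antagonists was -0.36 with dim probe sets left out, and that of ion and water transport -0.030 with the mean of probe sets. Among these genes only Krt13 had passed the test, and the cause of these changes was not tested. The 3 wild-type arrays limit the precision of every difference from wild-type, and low signals near background give understated differences.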

Other observations

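The genes with the largest spread among the 5 K19-Wnt1/C2mE mice fell into those already described and a few others. Chil4, a chitinase-like protein of mouse epithelium and macrophages, ranged over 5.82 to 11.27 with an SD of 2.75 (n = 5), against an SD of 0.70 among the 3 wild-type arrays. It was highest in array 3 and lowest in array 2, and its difference of 3.20 passed the test (limma, adjusted p = 0.0327). Rptn and Krtdap, genes of the cornified layer of squamous epithelium, had an SD of 2.61 and 2.60 in K19-Wnt1/C2mE and of 2.55 and 2.65 in wild-type, were highest in array 2 of the transgenic group, and did not pass (1.73 with adjusted p = 0.232 and 1.41 with adjusted p = 0.335 in limma). Chia1 had the largest SD of all, 2.83 in K19-Wnt1/C2mE against 0.0179 in wild-type. These genes were chosen after their values were seen.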
